A study of Mus musculus with 12 samples.

Results

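The fate of pyruvate was followed through 10 genes in C57BL/6 mice aged 4 weeks, in liver and in quadriceps muscle: the lactate dehydrogenases Ldha and Ldhb, the pyruvate dehydrogenase kinases Pdk1, Pdk2, Pdk3 and Pdk4, the pyruvate dehydrogenase subunits Pdha1 and Pdhb, the lactate and pyruvate transporter Slc16a1 and the pyruvate carboxylase Pcx. These are 10 of the 18194 genes named on the arrays. Every probe set that the array annotation assigned to 1 of these 10 symbols and to no other was taken, which gave 23 of the 45101 probe sets on the Affymetrix mouse arrays (a probe set is a group of short probes read as 1 value). Of these 23, 4 are manufacturer's control probe sets for Pcx, and of the other 19, 18 passed the filter on dim values in each tissue. NP+tau offspring came from dams given 1% taurine in the drinking water during pregnancy together with the normal protein diet (20% casein), and NP offspring came from dams given the same diet without taurine. Each tissue had 3 NP+tau and 3 NP animals. The study's methods state that each pup on the arrays had a different dam and gave both tissues. They do not say this separately for the mice aged 4 weeks. All values are log2 expression values from RMA, and since the tissues were normalised apart, levels were compared within a tissue only. Differences are NP+tau minus NP with the standard error (SE) from limma. The genes were chosen partly from earlier NP+tau and NP values of these samples, so their differences are given as a description and not as independent evidence.

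Pyruvate, the end product of glycolysis, stands at a branch point. Lactate dehydrogenase interconverts it with lactate; the A subunit prevails in tissues with high glycolytic flux and the B subunit in heart and oxidative muscle. The pyruvate dehydrogenase complex turns it into acetyl-CoA inside mitochondria, and its E1 component, built from Pdha1 and Pdhb, is switched off when a Pdk phosphorylates it. Pyruvate carboxylase makes oxaloacetate from it, the first step of gluconeogenesis in liver. Slc16a1, also known as MCT1, carries lactate and pyruvate across the plasma membrane. Ldha, Pdk1 and several glycolytic genes are known targets of the hypoxia-inducible factor HIF-1, and Pdk4 is known to be raised by fasting through PPAR and FoxO factors and glucocorticoids.

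All 10 genes had a start site in the RefSeq promoter table (build GRCm38.p6), with 14 entries in all. The sequences of Ldha, Ldhb and Pdk4 are shown because these genes carried the largest or most uniform differences below with all samples in. The Ldha window also differs from those of Ldhb and Pdk4 in its short motifs. Each runs 5′ to 3′ from 250 bases before to 50 bases after the start site, with capitals for matches on either strand to ACGTG (the core of the HIF site, which the E-box CACGTG contains on both strands), GGGCGG (the GC box), CCAAT (the CCAAT box) and TGACGTCA (the cAMP response element).
Ldha, chr7:46845554-46845853, plus strand: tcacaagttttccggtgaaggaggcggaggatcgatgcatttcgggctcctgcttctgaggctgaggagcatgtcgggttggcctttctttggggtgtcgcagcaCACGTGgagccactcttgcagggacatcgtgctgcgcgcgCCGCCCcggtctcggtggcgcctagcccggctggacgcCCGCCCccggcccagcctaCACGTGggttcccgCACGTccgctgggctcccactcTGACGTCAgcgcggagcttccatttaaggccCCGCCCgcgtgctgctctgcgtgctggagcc
Ldhb, chr6:142507908-142508207, minus strand: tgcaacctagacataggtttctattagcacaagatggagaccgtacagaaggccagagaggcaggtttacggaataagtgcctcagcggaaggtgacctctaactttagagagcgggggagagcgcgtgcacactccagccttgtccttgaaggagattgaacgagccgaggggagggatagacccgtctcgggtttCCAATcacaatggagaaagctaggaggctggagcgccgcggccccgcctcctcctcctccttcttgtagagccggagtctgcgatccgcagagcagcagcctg
Pdk4, chr6:5496229-5496528, minus strand: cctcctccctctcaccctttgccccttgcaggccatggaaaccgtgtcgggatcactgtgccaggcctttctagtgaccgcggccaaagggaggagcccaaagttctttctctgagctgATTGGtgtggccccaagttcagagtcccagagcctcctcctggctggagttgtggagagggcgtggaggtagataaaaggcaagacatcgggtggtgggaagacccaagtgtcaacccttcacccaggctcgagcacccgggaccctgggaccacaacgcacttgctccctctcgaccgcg
The Ldha window held 5 matches to ACGTG, 4 of them in 2 copies of the E-box, 3 GC boxes and 1 cAMP response element, while a second Ldha start site in the table had none of these motifs. The Ldhb and Pdk4 windows held no ACGTG and 1 CCAAT box each. Among the genes not shown, ACGTG also occurred in a window of Slc16a1, Pdk2, Pdk3, Pdhb and Pcx, and not in those of Pdk1 and Pdha1. Over all 32851 promoter entries, 19.6% held ACGTG, 7.15% the E-box, 35.7% the GC box, 37.4% the CCAAT box and 1.79% the cAMP response element. GTAAACA (the forkhead core, in 3.65% of all entries) and TATAAA (the TATA box, in 13.6%) were searched for as well and had no match in the 3 windows. A match describes the sequence and does not show that a factor binds there.

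Markers of the labelled tissue were bright in every sample: the mean log2 value of the hepatocyte markers was 13.99 to 14.19 in liver, and that of the muscle fibre markers 13.60 to 13.74 in muscle. Over both tissues, NP+tau replicates 2 and 3 had low Xist, the RNA that coats the silenced X (5.07 to 5.96, against 10.85 to 11.78 in NP+tau replicate 1 and all NP samples). The same replicates had high Eif2s3y, a gene of the Y chromosome (8.55 to 9.37, against 3.48 to 3.78). These sex markers were thus not balanced between NP+tau and NP. By the study's methods every group held pups of both sexes, whereas by these markers all NP samples were of the same sex. The array of liver NP+tau replicate 1 lay farthest from the median liver array (median absolute deviation 0.28, against 0.06 to 0.11 in the other livers). Liver NP replicate 1 had the highest neutrophil markers of the 6 livers (mean log2 value 8.69, against 4.98 to 6.31 in the others). In muscle these markers were highest in NP replicate 3 (10.06, against 5.74 to 8.24 in the others). Where leaving out one of these 3 samples turned the sign of a difference below or moved it by more than 1.5 times, the value without that sample is given beside it.

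Both lactate dehydrogenase genes were lower in NP+tau liver, with no overlap between the groups for any of their 5 probe sets, where 9.11% of all probe sets tested in liver lay lower in NP+tau without overlap. In whole tissue, fewer cells of a type and less RNA per cell cannot be told apart. Ldha was at 12.53, 12.71 and 12.71 in NP+tau livers, against 13.16, 12.96 and 12.85 in NP livers. The difference was -0.34 (SE 0.17), or 1.27-fold higher in NP liver. Ldhb, by its brightest probe set (1416183_a_at), was at 6.98, 6.84 and 6.64 in NP+tau livers, against 7.37, 7.41 and 7.22 in NP livers, with means of 6.82 ± 0.17 and 7.34 ± 0.10 (SD, n = 3 each). The difference was -0.52 (SE 0.17).
The other 3 Ldhb probe sets went the same way in liver, by unequal amounts. Probe set 1455235_x_at was at 6.23, 5.79 and 5.90 in NP+tau livers, against 6.77, 6.32 and 6.48 in NP livers, a difference of -0.55 (SE 0.21). Probe set 1448237_x_at was at 5.33, 5.67 and 5.84 in NP+tau livers, against 7.00, 6.57 and 6.64 in NP livers, a difference of -1.12 (SE 0.21), or 2.18-fold higher in NP liver. The measured gap was widest for 1434499_a_at, at 3.84, 4.13 and 4.65 in NP+tau livers, against 6.14, 5.57 and 5.70 in NP livers, a measured difference of -1.60. Of these 3 NP+tau values, 2 lay under the limit for a dim value (4.60 in liver), and that of replicate 3, 4.65, lay just above it. With those 2 values set to the limit, the mean was 2.28-fold higher in NP liver. The limit is a filter setting and not a measured background, so this is not a firm lower bound. No Ldhb probe set passed in liver (adjusted p = 0.718 for all 4, from limma with Benjamini-Hochberg adjustment). The 4 probe sets target the same gene and are not 4 independent measurements, and in the manufacturer's naming the suffix x marks probes that can bind other transcripts.
The Ldhb difference was of like size without either sample that stood apart. Without NP replicate 1, the difference of the brightest probe set in liver was -0.50, and without NP+tau replicate 1 it was -0.60. For 1448237_x_at the difference was -0.99 without NP replicate 1, -0.98 without NP+tau replicate 1 and -0.85 without both. The Ldha difference was -0.25 without NP replicate 1, -0.28 without NP+tau replicate 1 and -0.19 without both.

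In muscle, Ldhb was higher in NP+tau by all 4 probe sets, and this rested on 2 of the 3 NP+tau animals. The brightest probe set in muscle, 1455235_x_at, was at 10.79, 10.76 and 10.05 in NP+tau muscles, against 9.80, 9.96 and 10.18 in NP muscles. NP+tau replicates 1 and 2 thus lay above every NP muscle, and replicate 3 lay within the NP range. The difference was 0.55 (SE 0.23), or 1.46-fold, and it was 0.42 without NP+tau replicate 1, 0.44 without NP+tau replicate 2, 0.79 without NP+tau replicate 3 and 0.65 without NP replicate 3. Probe sets 1416183_a_at and 1448237_x_at likewise had replicates 1 and 2 above every NP muscle and replicate 3 within the NP range, with differences of 0.44 (SE 0.24) and 0.52 (SE 0.23), which were 0.26 and 0.36 without NP+tau replicate 1. Only 1434499_a_at had no overlap between the groups, at 10.31, 10.50 and 9.85 in NP+tau muscles, against 9.47, 9.74 and 9.83 in NP muscles, and there replicate 3 exceeded the highest NP muscle by little. The 2 muscles with high Ldhb were 1 animal with high and 1 with low Xist. Low Xist was found only among NP+tau muscles, and the part of sex in these Ldhb values was not tested.
Ldha did not separate the groups in muscle. It was at 13.81, 13.21 and 13.77 in NP+tau muscles, against 12.93, 13.77 and 13.72 in NP muscles, where NP replicate 1 was the lowest of the 6. The difference was 0.12 (SE 0.28), and it was -0.15 without NP replicate 1 and 0.24 without NP replicate 3.
The Ldhb differences had opposite signs in the tissues. The muscle difference less the liver difference was 0.96 (SE 0.31) for 1416183_a_at, 1.10 (SE 0.32) for 1455235_x_at, 1.64 (SE 0.33) for 1448237_x_at and 2.14 (SE 0.35) for 1434499_a_at, the last with the dim liver values given above. These SEs come from a fit that treated all arrays as independent, although by the study's methods both tissues came from the same animals. In the fit over the 25622 probe sets kept in both tissues, 0 passed limma at an adjusted p under 0.05 (percent called 0), and 1999 had an unadjusted p under 0.05, among them these 4 of the 18 pyruvate fate probe sets.

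**Figure D1:**
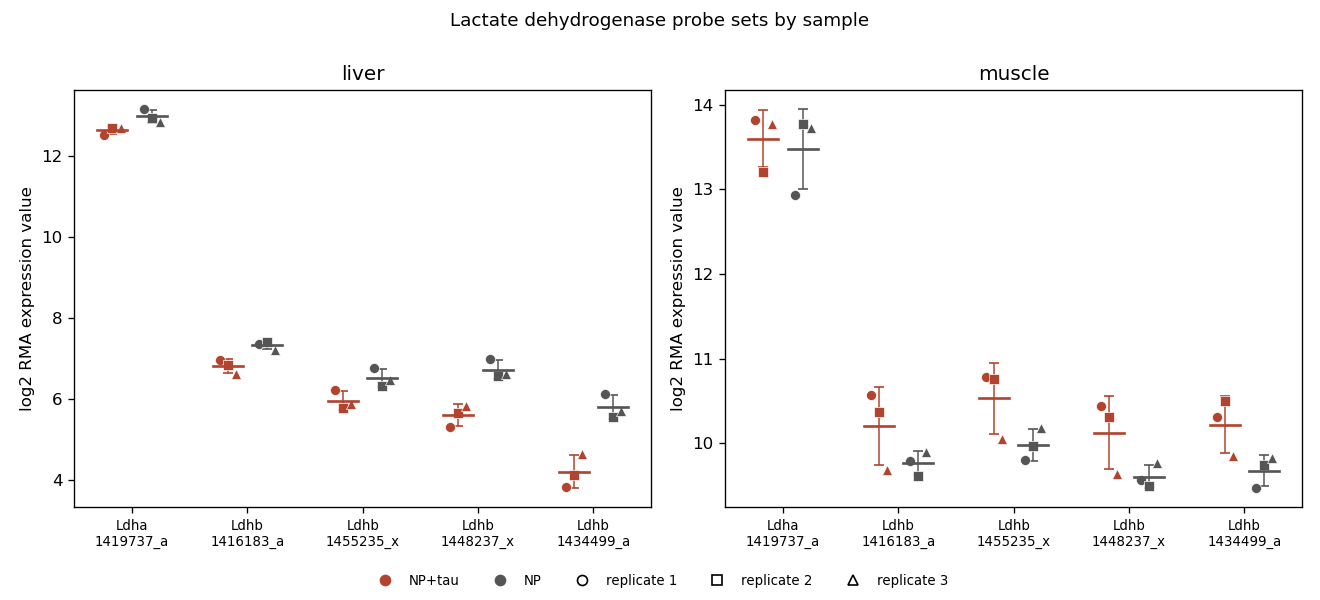
Log2 RMA values (vertical axis) of the Ldha probe set and the 4 Ldhb probe sets in each NP+tau (red) and NP (grey) sample of liver and muscle, where marker shapes tell the replicates apart, horizontal lines give means and whiskers the SD (n = 3). In liver every NP+tau value lies below every NP value of its probe set, and in muscle the NP+tau samples with high Ldhb are replicates 1 and 2.

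All 4 kinases that inhibit pyruvate dehydrogenase had a lower mean in NP+tau liver by their brightest probe set, and Pdk3 alone had no overlap there. Pdk4, the kinase raised by fasting, was at 6.17, 8.39 and 7.88 in NP+tau livers, against 8.27, 9.18 and 8.43 in NP livers. NP+tau replicate 1, the array that stood apart, was by far the lowest, while NP+tau replicate 2 lay within the NP range. The difference was -1.14 (SE 0.57), and -0.49 without NP+tau replicate 1. In muscle, Pdk4 was at 10.50, 11.57 and 10.88 in NP+tau, against 10.87, 11.56 and 10.26 in NP. The groups covered nearly the same range, with a difference of 0.08 (SE 0.39) that was -0.23 without NP replicate 3.
Pdk3, encoded on the X chromosome, was dim in both tissues. It was at 4.81, 5.02 and 5.13 in NP+tau livers, against 6.32, 5.54 and 5.19 in NP livers. The NP values spread over more than 1 log2 unit and the highest was that of replicate 1, the liver with the highest neutrophil markers. The difference was -0.69 (SE 0.30), and -0.37 without this liver. In muscle, Pdk3 was at 4.92, 4.87 and 5.32 in NP+tau, against 5.13, 5.11 and 5.43 in NP, a difference of -0.19 (SE 0.18) that was -0.08 without NP replicate 3.
Pdk1, a HIF-1 target, has 4 probe sets that disagreed in liver. The brightest there, 1423747_a_at, was at 9.27, 9.15 and 10.18 in NP+tau livers, against 9.35, 10.35 and 10.13 in NP livers, a difference of -0.40 (SE 0.37) that was -0.70 without NP replicate 1. Probe set 1423748_at differed by -0.48 (SE 0.32), and by -0.30 without NP+tau replicate 1. Probe set 1435836_at differed by 0.19 (SE 0.33), and by -0.17 without NP replicate 1. The fourth, 1434974_at, was above the limit for a dim value in only 1 liver, NP replicate 2. In muscle the brightest Pdk1 probe set was 1435836_at, with a difference of -0.01 (SE 0.19) that was 0.04 without NP replicate 3. The others differed by -0.25 to -0.11, and by -0.28 to -0.26 without that muscle.
Pdk2, the most widely expressed kinase of the family, was at 8.24, 9.04 and 9.22 in NP+tau livers, against 8.51, 9.45 and 9.32 in NP livers. In each group replicate 1 was the lowest. The difference was -0.26 (SE 0.35), and it was 0.04 without NP+tau replicate 1 and -0.55 without NP replicate 1. In muscle it was at 11.39, 10.96 and 11.12 in NP+tau, against 11.43, 11.28 and 11.28 in NP, a difference of -0.18 (SE 0.16).

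**Figure D2:**
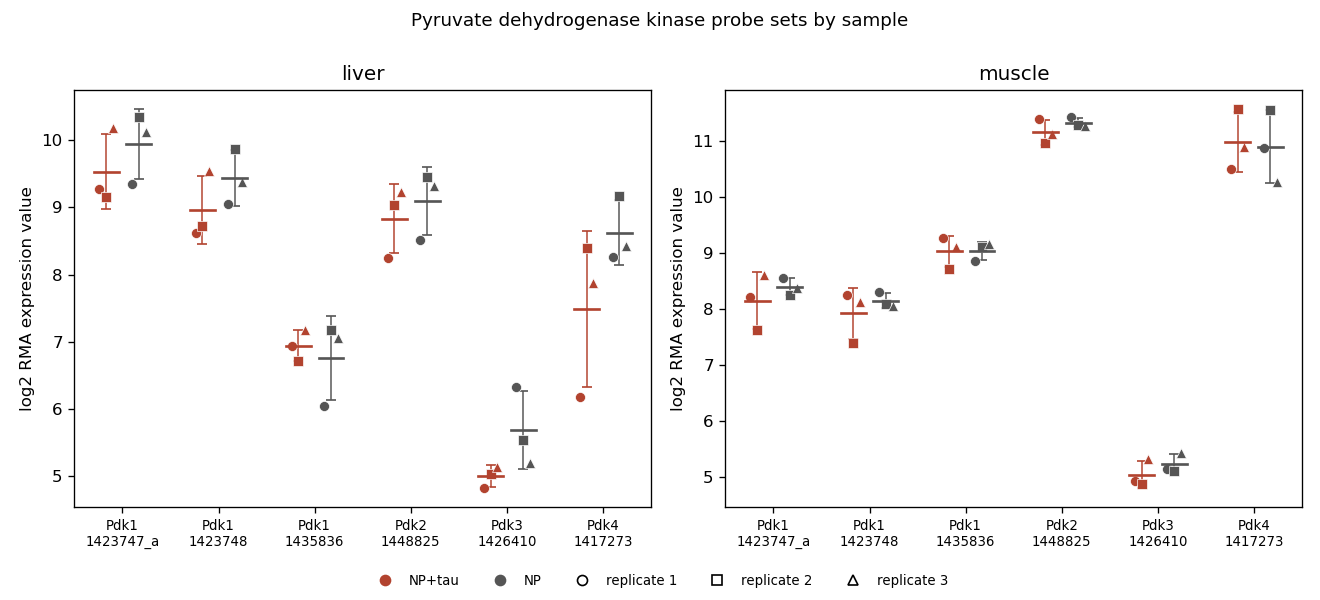
Log2 RMA values (vertical axis) of the kinase probe sets (1 dim Pdk1 probe set left out) in each NP+tau (red) and NP (grey) sample of liver and muscle, where marker shapes tell the replicates apart, horizontal lines give means and whiskers the SD (n = 3). The low point of Pdk4 in NP+tau liver, 6.17, is replicate 1, and the high point of Pdk3 in NP liver, 6.32, is also replicate 1.

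The E1 subunits that the kinases act on differed little in liver. Pdha1, on the X chromosome, was at 9.62, 10.61 and 10.32 in NP+tau livers, against 10.14, 10.32 and 10.26 in NP livers. The lowest value was again NP+tau replicate 1, and the difference of -0.06 (SE 0.27) turned to 0.23 without it and was -0.11 without NP replicate 1. Its other probe set, 1449137_at, differed by -0.21 (SE 0.47), by 0.34 without NP+tau replicate 1 and by -0.35 without NP replicate 1. Pdhb was at 10.53, 11.10 and 10.99 in NP+tau livers, against 10.52, 10.83 and 10.93 in NP livers. It was the only one of the 10 genes with a higher mean in NP+tau liver, by 0.11 (SE 0.22), a value that was 0.28 without NP+tau replicate 1 and -0.01 without NP replicate 1.
In muscle, both E1 subunits had a higher mean in NP+tau. The brighter Pdha1 probe set, 1418560_at, was at 12.57, 12.52 and 12.40 in NP+tau muscles, against 11.94, 12.23 and 12.28 in NP muscles. The groups did not overlap, and the difference was 0.35 (SE 0.15), or 1.27-fold, and 0.41 without NP replicate 3. The other Pdha1 probe set, 1449137_at, overlapped, with 11.69, 11.57 and 11.04 in NP+tau muscles, against 11.24, 11.24 and 11.45 in NP muscles. Its difference was 0.12 (SE 0.20), and it was 0.19 without NP replicate 3 and -0.01 without NP+tau replicate 1. Pdhb was at 12.38, 12.33 and 12.07 in NP+tau muscles, against 11.86, 12.29 and 12.11 in NP muscles. Its difference was 0.18 (SE 0.17), and it was 0.06 without NP replicate 1, the lowest muscle for Pdhb. The second Pdhb probe set, 1448214_at, was dimmer and overlapped in both tissues. Its difference in liver was 0.28 (SE 0.33), and -0.08 without NP replicate 1. In muscle it was 0.17 (SE 0.32), 0.26 without NP replicate 3 and -0.16 without NP replicate 1.
Slc16a1, the transporter, overlapped between the groups in both tissues. It was at 10.13, 10.88 and 10.77 in NP+tau livers, against 10.95, 10.90 and 10.67 in NP livers, a difference of -0.25 (SE 0.24) that was -0.02 without NP+tau replicate 1. In muscle it was at 10.18, 10.35 and 10.20 in NP+tau, against 9.74, 9.93 and 10.32 in NP, a difference of 0.25 (SE 0.18) that was 0.41 without NP replicate 3. Its second probe set, 1446274_at, lay under the limit for a dim value on all 12 arrays.
Pcx, the gluconeogenic branch, was at 10.46, 10.74 and 11.07 in NP+tau livers, against 10.43, 10.98 and 10.99 in NP livers, a difference of -0.05 (SE 0.24) that was 0.10 without NP+tau replicate 1 and -0.24 without NP replicate 1. In muscle it was at 7.99, 8.17 and 7.83 in NP+tau, against 8.34, 8.44 and 7.53 in NP, a difference of -0.10 (SE 0.26) that was -0.39 without NP replicate 3. The groups overlapped in both tissues.
The 4 control probe sets for Pcx, placed along its transcript from the 5′ to the 3′ end, gave a view of RNA quality beside these values. Their NP+tau minus NP differences in liver were -0.08 at the 3′ end, -0.26 and -0.29 in the middle and -0.47 at the 5′ end. Without NP+tau replicate 1 these were 0.07, 0.01, 0.09 and -0.08 in the same order, and without NP replicate 1 -0.26, -0.49, -0.56 and -0.72. In muscle the differences were -0.16, -0.56, -0.33 and -0.35 in the same order, and the first of these was -0.35 without NP replicate 3. The signal at the 3′ end less that at the 5′ end was 2.95 in liver NP+tau replicate 1, against 1.93 to 2.27 in the other 5 livers. The same measure of Gapdh did not set this liver apart in the same way, at -0.15 against -0.14 to -0.11 in the others. For actin it was 0.76 in this liver, within the 0.60 to 0.84 of the others.

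**Figure D3:**
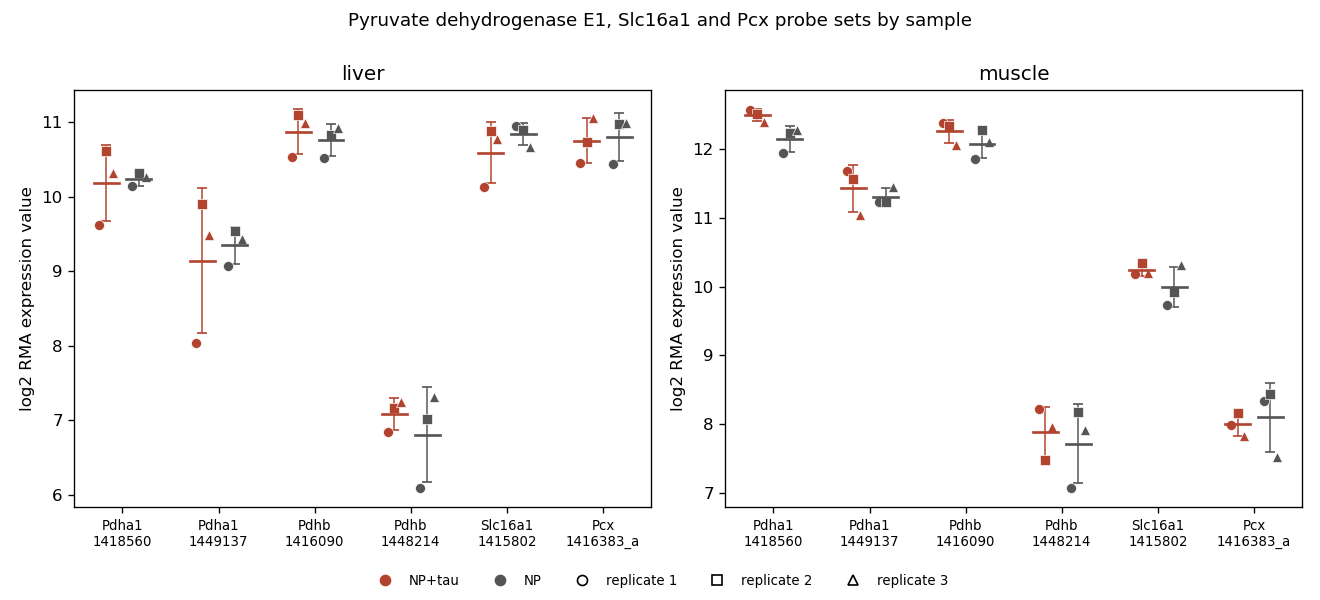
Log2 RMA values (vertical axis) of the probe sets of Pdha1, Pdhb, Slc16a1 and Pcx (control and dim probe sets left out) in each NP+tau (red) and NP (grey) sample of liver and muscle, where marker shapes tell the replicates apart, horizontal lines give means and whiskers the SD (n = 3). In muscle the 3 NP+tau values of Pdha1 probe set 1418560_at lie above the 3 NP values, while those of 1449137_at do not.

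Over all 10 genes by their brightest probe set, 9 had a lower mean in NP+tau liver and 1 a higher one, with a median difference of -0.30, beside a median of -0.03 and 46.5% above 0 over all 14276 genes measured there. Without NP+tau replicate 1 the liver median of the 10 genes was -0.14. In muscle 6 were higher and 4 lower, with a median of 0.10, beside 0.03 and 54.6% above 0 over 13829 genes. Of the 18 probe sets, 6 lay lower in liver without overlap between the groups, where 9.11% of all probe sets did so. These 6 were the probe sets of Ldha (1), Ldhb (4) and Pdk3 (1), and 0 lay higher without overlap, against 5.73% of all. The genes were chosen partly from these values, so these shares do not test the set against all probe sets. In muscle 2 lay higher without overlap (1 each of Ldhb and Pdha1), against 7.33% of all, and 0 lower, against 7.77% of all. The count lower in liver was 6 to 8 with single samples left out, where 12% to 18% of all probe sets lay lower, and without NP+tau replicate 1 there were also 2 higher, where 11.6% of all did. The muscle count was 7 without NP+tau replicate 3 and 5 without NP replicate 3, where 10.6% and 14.7% of all probe sets lay higher.
No probe set of the 10 genes passed limma at an adjusted p under 0.05 over all probe sets in either tissue, nor did any other probe set (0 of 29274 called, percent called 0 in each). At an unadjusted p under 0.05 there were 4 of the 18 in liver, all of Ldhb and all lower. Of all probe sets there, 3.99% were lower and 0.7% higher. These 4 target 1 gene and are not independent, and 1 of them had 2 NP+tau values under the limit for a dim value. In muscle there was 1 of the 18, of Ldhb and higher, where 3.72% were higher and 2.4% lower. By the brightest probe set it was 1 of the 10 genes in liver and 0 in muscle. Since the genes were chosen partly from these values, such counts do not test the set against all probe sets. In liver NP+tau replicate 1 had the lowest value of Ldha, Pdk2, Pdk3, Pdk4, Pdha1 and Slc16a1, and without it 4 of the 10 genes had a higher mean in NP+tau.

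**Figure D4:**
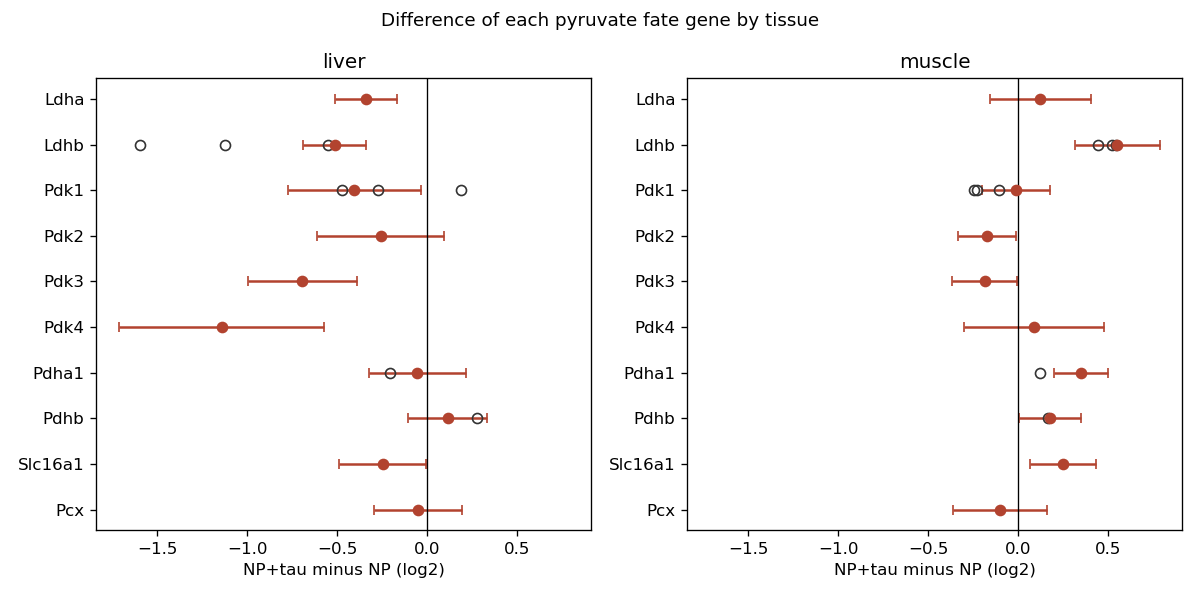
NP+tau minus NP difference (horizontal axis, log2) of the 10 genes in liver and muscle; filled red points with SE bars from limma are the brightest probe set of each gene and open points its other probe sets that passed the filter. In liver 9 of 10 filled points lie below 0 and the open points of Ldhb reach -1.60 (the probe set with dim NP+tau values), and in muscle all 4 Ldhb points lie above 0.

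Genes upstream of pyruvate mostly had lower means in NP+tau liver too. Of 19 measured genes of glycolysis and glucose uptake, 17 were lower, with a median difference of -0.23, and 6 lay lower and 1 higher without overlap, where 9.19% of all genes measured in liver lay lower and 6.00% higher. Pfkp, the platelet-type phosphofructokinase, was at 5.66, 5.49 and 5.25 in NP+tau livers, against 9.44, 7.42 and 6.52 in NP livers, a difference of -2.33 (SE 0.68) that was -1.50 without NP replicate 1. Hk2, the hexokinase of muscle and activated cells, differed by -1.03 (SE 0.28). The liver-type phosphofructokinase Pfkl differed by -0.95 (SE 0.53), with its lowest value of 7.29 in NP+tau replicate 1, and by -0.30 without that replicate. Without it 12 of the 19 genes were lower, and their median was -0.24.
Of 20 measured genes of the HIF pathway and its targets, 18 were lower in NP+tau liver, with a median of -0.39. Without NP+tau replicate 1 the count was 12 of 20 and the median -0.09. The MYC antagonist Mxi1 differed by -1.16 (SE 0.42), the histone demethylase Kdm3a by -1.11 (SE 0.44) and the mitophagy receptor Bnip3 by -0.39 (SE 0.19), each with its lowest value in NP+tau replicate 1. Without that replicate they differed by -0.68, -0.61 and -0.30 in the same order.
Among 25 further genes of pyruvate handling (mitochondrial pyruvate carriers, the other subunits and phosphatases of pyruvate dehydrogenase, malic enzymes, transaminases and pyruvate kinases), 13 were lower and 12 higher in NP+tau liver. The pyruvate kinase Pkm was at 7.20, 7.82 and 8.29 in NP+tau livers, against 9.83, 8.72 and 8.37 in NP livers, a difference of -1.20 (SE 0.44) that was -0.77 without NP replicate 1. The alanine transaminase Gpt2 differed by -0.75 (SE 0.28), and by -0.46 without NP replicate 1. Of 27 regulators and co-regulated genes of Pdk4, 14 were lower and 13 higher. The coactivator Ppargc1a differed by -1.49 (SE 0.45), the metallothionein Mt1 by -1.06 (SE 0.25) and the lipase inhibitor Angptl4, which like Pdk4 is a PPAR target, by 0.72 (SE 0.29). No gene of these lists passed limma over all probe sets (adjusted p of 0.718 or more).
Markers of macrophages and neutrophils had lower means in NP+tau liver. All 14 macrophage and Kupffer cell markers were lower in NP+tau, and their mean level was 7.47 to 8.42 in NP+tau livers, against 8.84 to 9.79 in NP livers. Of 11 measured neutrophil markers, 10 were lower, with a mean level of 4.98 to 5.53 in NP+tau livers, against 6.06 to 8.69 in NP livers. Adipocyte markers were lower for 4 of 4 genes, with a median difference of -1.12 that was -0.52 without NP replicate 1. Endothelial markers were lower for 7 of 8 genes, with a median of -0.21 that was -0.08 without NP+tau replicate 1. Of the erythroid markers 4 of 6 were lower, and of the hepatocyte markers 5 of 9. Among the 6 livers, NP replicate 1 had the highest values of the neutrophil markers and also of Pfkp, Pkm, Ldha, Pdk3 and 3 of the 4 Ldhb probe sets (all but 1416183_a_at, highest in NP replicate 2). Skeletal muscle fibre markers went the other way: all 6 measured had a higher mean in NP+tau liver, with a median difference of 0.26 that was 0.15 without NP+tau replicate 1. Their mean level was 4.89 to 5.48 in NP+tau livers, the highest in replicate 1, against 4.71 to 4.79 in NP livers. These levels lie near the limit for a dim value (4.60 in liver), and only these 6 of the 9 listed markers passed the filter there. The part of these cells in the Ldha, Ldhb and Pdk3 values was not tested.

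In muscle the neighbouring lists did not go one way. Of 17 measured glycolytic genes, 13 were higher in NP+tau, with a median of 0.13, and without NP replicate 1 it was 8 of 17. Pfkfb4, which makes the activator of phosphofructokinase, was at 9.19, 9.58 and 9.09 in NP+tau muscles, against 7.95, 8.70 and 8.73 in NP muscles, a difference of 0.83 (SE 0.25). The insulin-dependent glucose transporter Slc2a4 differed by -0.36 (SE 0.20), and by -0.16 without NP replicate 1. Of 24 genes of pyruvate handling, 12 were higher and 12 lower. The malic enzyme Me1 was at 10.01, 10.01 and 10.15 in NP+tau muscles, against 8.97, 9.63 and 9.50 in NP muscles, a difference of 0.69 (SE 0.20). Pdhx, which tethers the E3 subunit in the pyruvate dehydrogenase complex, differed by 0.58 (SE 0.22), and Bsg, the chaperone that brings Slc16a1 to the membrane, by -0.42 (SE 0.18).
Of 29 regulators and co-regulated genes of Pdk4, 18 were lower and 11 higher in NP+tau muscle. Their median was -0.13, and it was -0.27 without NP replicate 3. Without NP replicate 1 the balance turned, with 10 lower and 19 higher and a median of 0.13. Those higher without overlap were 3 of the 29 (10.3%), beside 8.44% of all genes measured in muscle. The nuclear receptor Esrrg, an activator of oxidative genes, was at 7.25, 6.91 and 6.72 in NP+tau muscles, against 5.79, 6.04 and 6.20 in NP muscles, a difference of 0.95 (SE 0.19). The fatty acid binding protein Fabp3 differed by 1.04 (SE 0.31) and the thioesterase Acot2 by 0.68 (SE 0.34), and by 0.25 without NP+tau replicate 2. Of 20 HIF pathway genes, 13 were higher and 7 lower, with Epas1 at 0.42 (SE 0.18), Ankrd37 at -0.65 (SE 0.25) and Mxi1 at -0.54 (SE 0.18). None of these genes passed limma over all probe sets (adjusted p of 0.707 or more).
Since Ldhb prevails in oxidative fibres, slow fibre markers were set beside it. All 11 had a higher mean in NP+tau muscle, with a mean level of 12.67, 11.42 and 12.05 in NP+tau muscles, against 11.71, 11.53 and 12.10 in NP muscles. The high sample was NP+tau replicate 1, without which 2 of the 11 were higher. Ldhb was also high in NP+tau replicate 2, the muscle with the lowest level of slow fibre markers. Fast fibre markers lay at 14.12 to 14.29 in all 6 muscles. Endothelial markers were higher in NP+tau for 7 of 8 genes, with a mean level of 8.24 to 8.43 in NP+tau muscles, against 7.87 to 8.06 in NP muscles, and macrophage markers were lower for 11 of 13. Hepatocyte markers were lower for 6 of 6 genes, adipocyte markers for 5 of 6, erythroid markers for 4 of 6 and neutrophil markers for 7 of 10. The mean level of the hepatocyte markers was only 5.13 to 5.94 in muscle, where the limit for a dim value was 4.49. Only these 6 of the 10 listed hepatocyte markers passed the filter there. Without NP replicate 3, 1 of the 10 neutrophil markers and 3 of the 6 erythroid markers were lower. The part of these cells in the Ldhb and Pdha1 values was not tested.

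**Figure D5:**
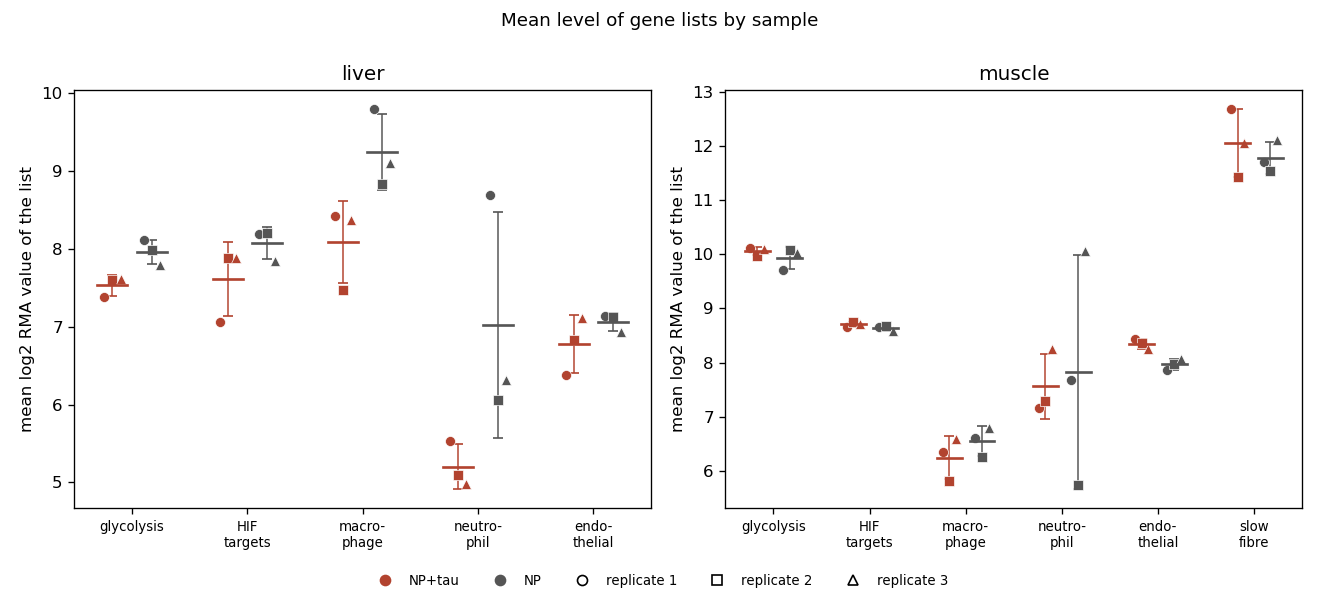
Mean log2 RMA value (vertical axis) of gene lists in each NP+tau (red) and NP (grey) sample of liver and muscle, where marker shapes tell the replicates apart, horizontal lines give means and whiskers the SD (n = 3). In liver the macrophage markers lie at 7.47 to 8.42 in NP+tau and 8.84 to 9.79 in NP, and in muscle the high point of the slow fibre markers, 12.67, is NP+tau replicate 1.

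For the genes whose 6 values in a tissue, by the brightest probe set, spanned more than 1 log2 unit, the probe set with the closest profile was sought among 24727 other named probe sets in liver and 24536 in muscle, by the root mean square distance between profiles over the 6 samples after centring. In liver this was Enpp3 for Pdk1 (distance 0.10), Eif4a2 for Pdk2 (0.10), Mxra8 for Pdk3 (0.05) and Rprd2 for Pdk4 (0.22). In muscle only Pdk4 spanned that much, and the closest was Map3k14 (0.21). These distances describe 6 arrays a tissue and no more.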

How the data were processed

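Liver and quadriceps muscle of 3 NP+tau and 3 NP mice were measured. The deposited values are log2 expression values per probe set that the authors made with quantile normalisation and RMA (justRMA, each tissue apart). The members and gene lists were chosen with earlier results of these data known. The platform annotation gave 1 symbol for 34958 probe sets, several for 932 and none for 9211. The 64 control probe sets were removed, and for each tissue the filter kept probe sets whose maximum over the 6 arrays was at or above the 35th percentile of all such maxima (4.60 in liver, 4.49 in muscle), leaving 29274 in each. NP+tau was compared with NP by limma 3.58.1 in R 4.3.3 (lmFit, eBayes), two-sided, with Benjamini-Hochberg adjustment over all probe sets kept and a threshold of 0.05. SAM on mitochondrial genes, used in the study, was not repeated. The brightest probe set stands for a gene. Named beside the 10 genes are, per list, up to 3 genes with the largest difference among those without overlap, and the closest profile of a member that spanned more than 1 log2 unit; a few of these genes are not printed. The fit was tested on simulated liver and muscle tables: in liver it called 3% of the probe sets shifted by 1 log2 unit and 50% of those shifted by 2, and in muscle 33% and 69%. The simulated noise was drawn independently for each probe set and array. Deviations shared across an array and the unequal sex markers were not simulated. Files were read with the R package data.table (version 1.17.8), block fits used statmod 1.5.0, and figures were drawn with matplotlib 3.10.9. The alternatives were other filters, an intensity trend, array weights, centring, the replicate number as a block, Xist as a covariate, a threshold of 0.1, the mean over probe sets and each sample left out. For the difference between tissues, the block was the animal, taken as the same group and replicate number in both tissues. Same-numbered NP+tau and NP samples came from different dams. The number of arrays limits the precision.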

Additional observations from a re-analysis of the deposited data

Results flagged for a closer look

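Ldhb probe set 1434499_a_at is given a closer look because all 3 NP+tau samples lay below all 3 NP samples in liver and above all 3 in muscle. Its NP+tau minus NP difference in muscle less that in liver was 2.14 on the log2 scale (SE 0.35, adjusted p = 0.542 from limma over 25622 probe sets), so it did not pass. In liver 2 of its 3 NP+tau values lay under the limit for a dim value, and Ldhb was among the genes followed because of values of these samples.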

How the results depend on the processing

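With 3 samples a group the precision is low, and a probe set near background has little signal. In liver the count of called probe sets, 0, was 8 with array weights, 9449 with the Xist level as a covariate, 9 without NP replicate 1 and NP+tau replicate 1 together, and 0 to 9 with single samples left out. Pyruvate fate probe sets called in liver were 5 with the Xist covariate, against 0; this fit compares in effect NP+tau replicate 1, the array that stood apart, with the NP livers. Genes higher in NP+tau liver, 1 of 10, were 2 with array weights, 3 with centred arrays, 0 with the Xist covariate, 3 without both replicates 1, and 0 to 4 with single samples left out. Centring shifted all liver differences by 0.11. In muscle the count of called probe sets, 0, was 0 to 8 with single samples left out. With the replicate number as a block, 0 probe sets passed in either tissue, and 1 of 10 genes in liver and 6 of 10 in muscle were higher; the numbers do not pair animals (correlations of same-numbered deviations -0.11 to 0.11 in liver and -0.27 to 0.33 in muscle). The difference between tissues had 0 calls under each alternative run. In liver Ldha, Ldhb, Pdk1, Pdk3 and Pdk4 kept the sign of their difference under all 16 alternatives, as in muscle Ldhb, Pdk3, Pdha1, Pdhb and Slc16a1 under all 15. Fits with Pcx control probe sets kept, and counts of non-overlap or of lists and differences of listed genes with samples left out, were added after seeing the data. The cause of these shifts was not tested.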
